A study of Mus musculus with 12 samples.

Results

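The 40 genes described here encode the enzymes, carriers and regulators of fatty acid oxidation, together with peroxisomal oxidases and the thioesterases and acyltransferases that act on acyl-CoA. They were taken by gene symbol from a list drawn up with earlier results of these data known, so counts over the list are a description and not independent evidence, and all 40 were found among the 25239 symbols of the count table. RNA of brain and liver had been sequenced from male C57BL/6J wild-type mice aged 24 months, in 3 control and 3 heat stress libraries per tissue. Heat stress was 40 °C at 60% humidity for 3 hours per day over 15 days, tissues were taken from all mice after the exposure period, and control mice had no such exposure. Sex, strain, age and wild-type genotype were shared by all groups, so the model covers aged males of a single inbred strain. The study's methods give 3 mice per group, but no label ties a brain library to a liver library of the same mouse, and the p-values measure the spread between these libraries.

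Fatty acids are activated to acyl-CoA in the cytosol and cross into mitochondria by the carnitine shuttle, where each turn of β-oxidation shortens the chain and passes electrons through electron transfer flavoprotein to the respiratory chain. Very long and branched chains are shortened first in peroxisomes, whose thioesterases and acyltransferases release or conjugate the products. In liver the nuclear receptor PPARα switches on many of these genes during fasting, and the brain uses the pathway much less.

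The 40 genes held between 1.39% and 1.77% of all counts in a liver library and between 0.0756% and 0.0892% in a brain library, at totals of 10466198 to 15609040 counts per library. Hepatocyte markers marked every liver library, with Alb, the albumin gene, between 50406 and 86772 CPM (counts scaled to the library size, with the TMM method), and neuronal markers summed to between 6159 and 8520 CPM in every brain library. Of the hepatocyte markers, Alb reached at most 9.58 CPM in brain and Hnf4a was at 0 there, while Ttr, which the choroid plexus also makes, lay between 1159 and 2325 CPM in control brain and between 227 and 1057 CPM in heat stress brain, without overlap (log2 fold change -1.40, unadjusted p = 0.0237, adjusted p = 0.199 with edgeR). Skeletal muscle markers stood out in a pair of liver libraries, with sums of 409 CPM in control replicate 1 and 2250 CPM in heat stress replicate 2 against 1.21 to 7.18 CPM in the other liver libraries. Control replicate 1 also held 33.5 CPM of neuronal markers where the other liver libraries held 13.5 to 18.5. Heat stress replicate 2 was highest of the liver libraries in the fat cell genes Adipoq, Plin1, Cfd and Retn, but not in Cidea. Adipoq was at 3.35 CPM there and at most at 0.237 CPM in the other liver libraries. The sum of 6 fat cell markers was 30.4 CPM in that library and 6.70 to 28.7 CPM in the others. The column names of liver control replicate 2 and of liver heat stress replicates 1 and 3 carry the suffix 2nd, which no source explains. In bulk tissue, fewer cells of a type and less RNA per cell cannot be told apart.

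In control liver the levels of the 40 genes spanned a wide range. Per kilobase of exon, and on a common scale of all 12 libraries, the order ran from Fabp1, the liver fatty acid binding protein, at 18732 ± 4646 (SD, n = 3) normalised CPM per kilobase, to Fgf21, the fasting hormone, at 0.996 ± 0.403. Next after Fabp1 came the thiolases Acaa2 of mitochondria at 916 ± 307 and Acaa1b of peroxisomes at 902 ± 362, whose levels overlapped. The electron transfer flavoprotein subunits followed, with Etfb at 529 ± 67.2 and Etfa at 387 ± 61.3. Baat, which joins bile acids and fatty acids to amino acids, was at 253 ± 14.1, and its neighbours in the order, Hao1 at 226 ± 24.1 and Acadvl at 214 ± 72.4, overlapped each other. Acnat1 was at 90.4 ± 11.3 and its paralog Acnat2 at 31.0 ± 12.4. At the low end lay Hao2 at 2.47 ± 1.20, Acot2 at 2.44 ± 0.444 and Ppargc1a, the coactivator of mitochondrial genes, at 1.73 ± 0.370, whose levels overlapped.

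Brain served as the reference tissue. Control liver was above control brain in 38 of the 40 genes (called at an adjusted p below 0.05 together with more than a doubling, that is a log2 fold change beyond 1; quasi-likelihood test of edgeR, p-values adjusted over 15824 genes), where 27.5% of all genes tested were called higher in liver and 37.2% lower. Ppargc1a was the exception in the other direction, 3.22-fold higher in control brain (adjusted p = 2.33e-06), and Acot2 did not pass, with 1.12-fold more in liver (adjusted p = 0.530). Among the 28 higher genes that brain libraries also measured well enough to test, the fold ran from 2.13 for Pdk4 to 168 for Cd36, the fatty acid translocase, with a median of 17.0. Hao2 and Acnat2 had 0 counts in every brain library and were at least 31.3-fold and 334-fold higher in control liver, taking 3 counts per library as the brain floor. Acaa1b, Hao1, Acot12, Acnat1, Baat, Fgf21, Vnn1 and Fabp1 were also too low in brain for a test of the heat effect, Fabp1 at 1.07 CPM or less in every brain library.

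**Figure D1:**
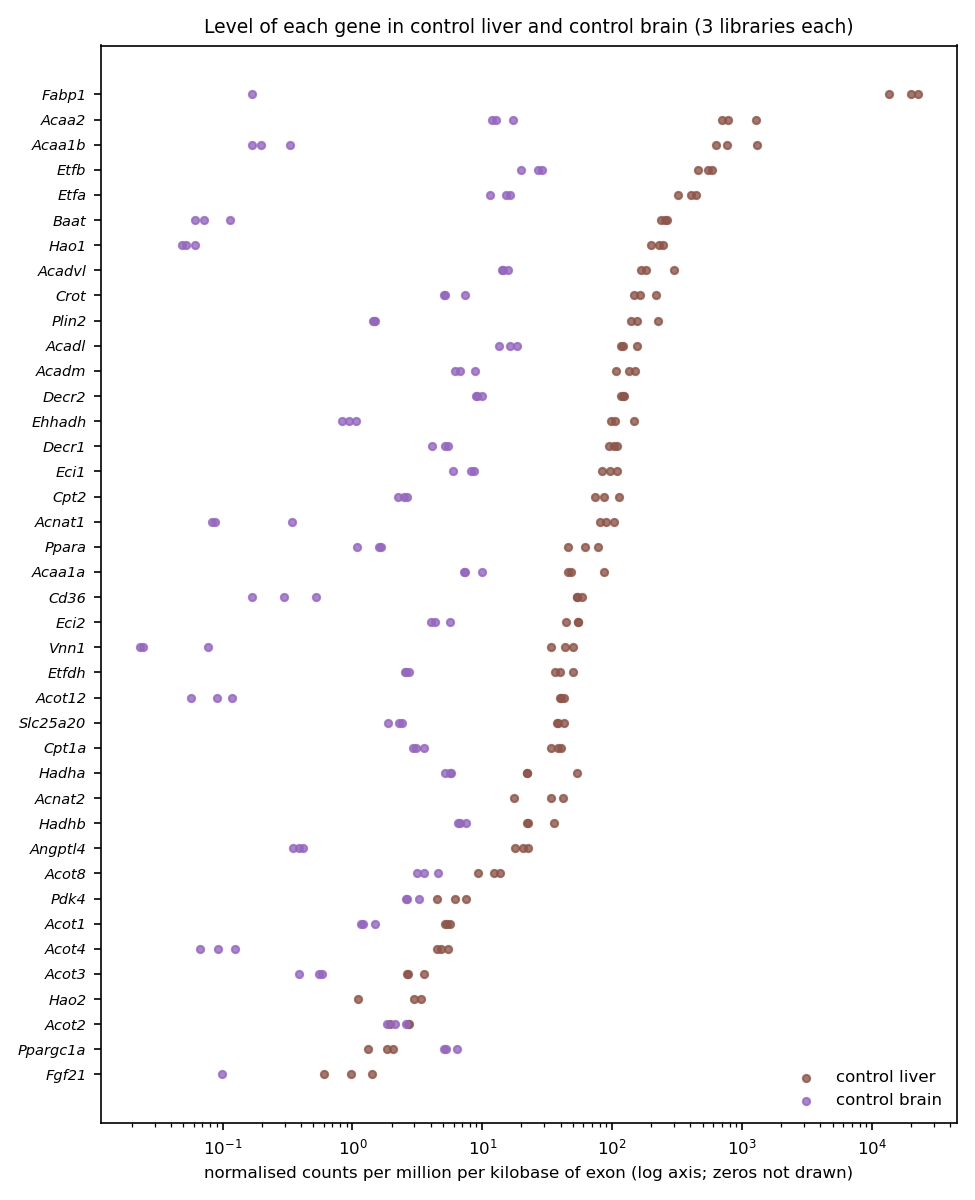
Level of each of the 40 genes in the 3 control liver and 3 control brain libraries, as normalised CPM per kilobase of exon on a log axis, ordered by the mean in control liver. Liver points lie to the right of brain points except for Ppargc1a, and for Acot2 they lie close together.

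The comparison of heat stress with control in liver asked whether periodic heat changed these genes. The acyltransferase paralogs Acnat1 and Acnat2 and the peroxisomal oxidases Hao1 and Hao2 lay lower in all 3 heat stress livers than in all 3 control livers, whereas the mitochondrial β-oxidation enzymes overlapped. By the same rule no gene of the 12296 tested in liver was called (0% higher and 0% lower), and none of the 40 members, all of which were tested, was called either. At an unadjusted p-value under 0.05, 5 of the 40 were lower after heat stress, against 2.87% of all genes tested, and 0 were higher, against 2.97%. The 5 were Acnat1, Acnat2, Hao1, Hao2 and Pdk4. By lack of overlap between the 3 control and the 3 heat stress libraries, 6 members lay lower (Acnat1, Acnat2, Baat, Hao1, Hao2 and Acot4; 5.73% of all genes) and 2 lay higher (Cpt1a and Eci2; 5.38% of all genes). The median log2 fold change of the 40 was 0.06 against 0.01 for all genes, with 23 of them above 0 and 17 below, where 51.8% of all genes were above 0. Of the 40, 24 had a log2 fold change of less than 0.25 in size, and the standard error ran from 0.16 to 0.47 with a median of 0.22.

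**Figure D2:**
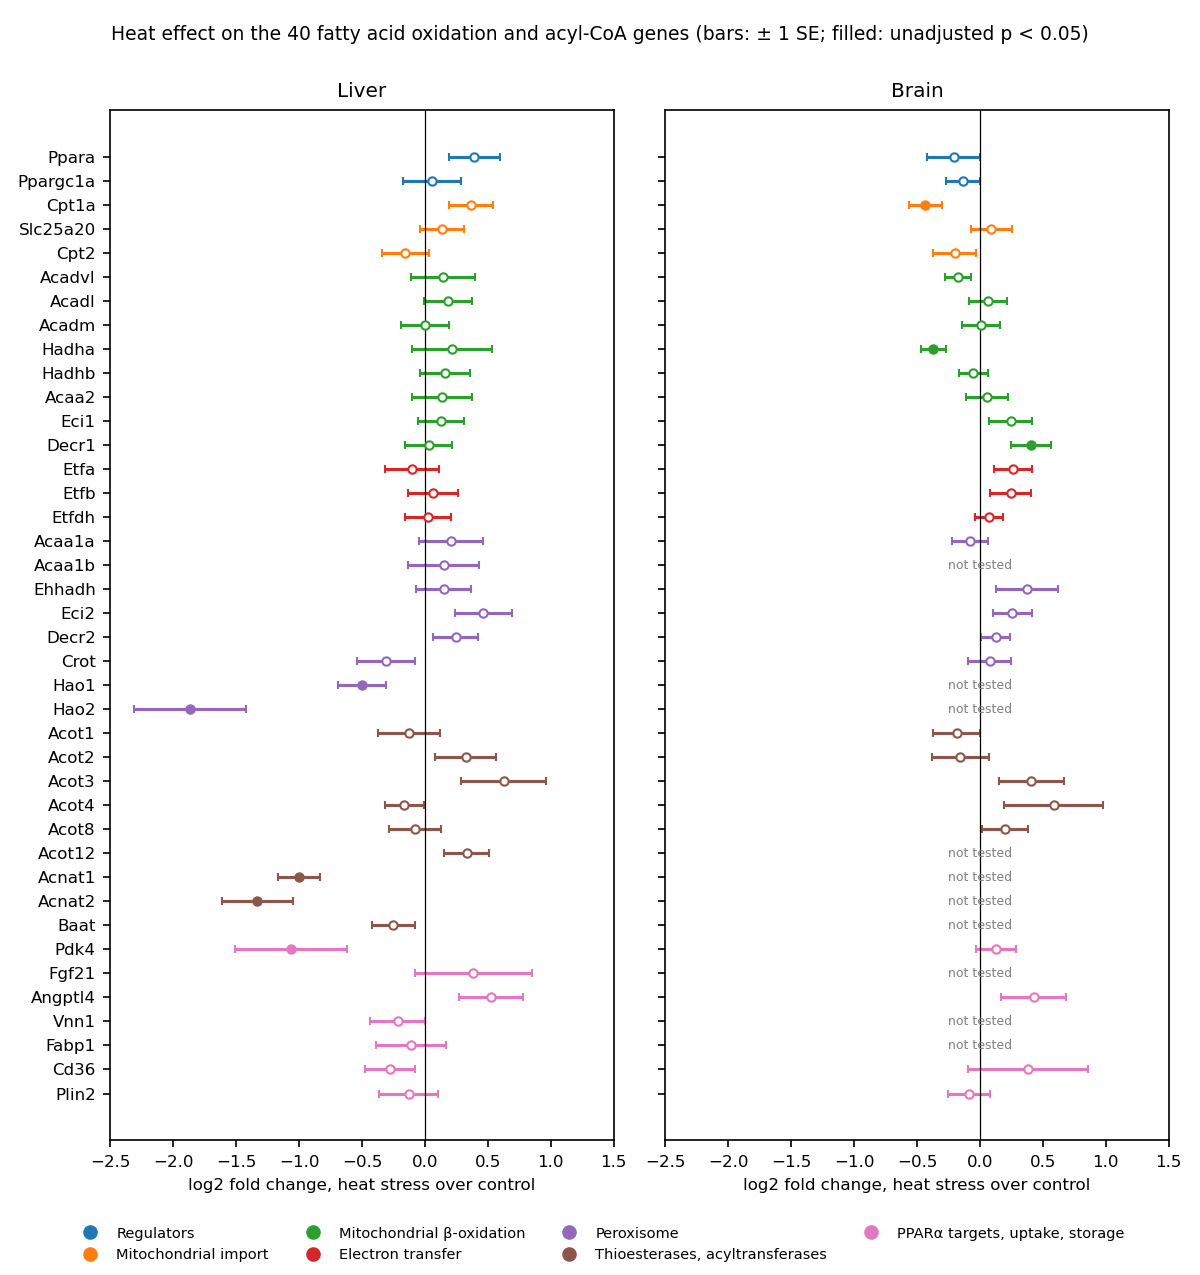
Log2 fold change of heat stress over control for each gene in liver (left) and brain (right), with bars of 1 standard error, from 3 libraries per group, coloured by role. Filled points have an unadjusted p-value under 0.05: in liver Acnat1, Acnat2, Hao1, Hao2 and Pdk4 to the left of 0, in brain Cpt1a and Hadha to the left and Decr1 to the right.

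The acyltransferases gave the lowest p-values of the set. Acnat1 and Acnat2 encode peroxisomal enzymes that conjugate fatty acids to amino acids, and they lie 38953 bases apart on the minus strand of chromosome 4 in mm10, Acnat2 from 49379840 to 49408151 and Acnat1 from 49447105 to 49473912. Baat, from 49489422 to 49506557, completes a span of 127 kb. Acnat1 measured 136, 135 and 119 CPM in the control livers and 66.0, 58.8 and 70.6 CPM in the heat stress livers. Every heat stress library lay far below every control library, and the spread within each group was small. The log2 fold change was -0.998 (SE 0.17, unadjusted p = 0.000146, adjusted p = 0.132 with edgeR), and Acnat1 ranked 11 among the 12296 genes by p-value. With DESeq2 on the same libraries the adjusted p-value was 2.57e-06, and without control replicate 1 edgeR gave 0.0393. Without both libraries that carried muscle transcripts the log2 fold change was -0.91 and edgeR's adjusted p-value 0.0195. In the other 12 of 15 alternatives the adjusted p-value stayed above 0.05, up to 0.882.

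Acnat2 measured 37.0, 51.8 and 21.3 CPM in control and 15.4, 14.1 and 14.3 CPM after heat stress. The controls were spread over a wide range, whereas the heat stress livers were close together and all lower. Its log2 fold change was -1.33 (SE 0.28, adjusted p = 0.341 with edgeR), and DESeq2 gave an adjusted p-value of 0.00554, while the adjusted p-values of the other alternatives all lay above 0.05. Between the open reading frames of the paralogs 95.2% of bases were identical, and 16.6% of the 100-base windows of the Acnat1 transcript occur exactly in Acnat2, the longest shared run being 200 bases, so some reads cannot be assigned to either gene. Summed over both genes, the level was 173, 187 and 140 CPM in control and 81.4, 72.9 and 84.9 CPM after heat stress, and the groups did not overlap. The sum holds only reads that were counted, and it was chosen after seeing the data. The summed row had a log2 fold change of -1.07 (SE 0.18, adjusted p = 0.131 with edgeR). Acnat2 made up 15.2% to 27.7% of this sum in control and 16.8% to 19.3% after heat stress.

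Baat shares no 100-base window with Acnat1 and differed less between the groups. It measured 323, 353 and 324 CPM in control and 300, 270 and 270 CPM after heat stress, a log2 fold change of -0.25 (SE 0.17, adjusted p = 0.936). The groups did not overlap, but the difference was small against the level. Nearby, Mrpl50, a mitochondrial ribosomal protein gene, overlapped between the groups. Zfp189, a zinc finger gene, was lower with a log2 fold change of -0.58 (unadjusted p = 0.0394, adjusted p = 0.846).

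To show the start regions of genes in which liver groups stood apart, windows from 250 bases before to 50 bases after the RefSeq start are printed for the Acnat1 and Acnat2 paralogs, for Hao2, and for Cpt1a as a member that lay higher. They are on GRCm38.p6, the assembly of mm10, at chr4:49451060-49451359, chr4:49408102-49408401 and chr3:98893181-98893480 on the minus strand and chr19:3323051-3323350 on the plus strand. Sequences run 5′ to 3′, and capitals mark the hexamer AGGTCA, which reads TGACCT when it lies on the other strand, the unit of the direct repeat that PPARα binds with its partner RXR. The Acnat1 and Cpt1a windows lie inside the genes as GENCODE M21 draws them, because the annotations place the starts differently. Acnat2 has another RefSeq window that is not shown.
Acnat1: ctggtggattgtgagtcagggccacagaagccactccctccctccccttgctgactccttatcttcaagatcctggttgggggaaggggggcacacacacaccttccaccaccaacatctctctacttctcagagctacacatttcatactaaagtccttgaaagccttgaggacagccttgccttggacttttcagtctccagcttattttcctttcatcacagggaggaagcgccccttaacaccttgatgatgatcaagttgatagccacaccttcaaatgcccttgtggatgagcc
Acnat2: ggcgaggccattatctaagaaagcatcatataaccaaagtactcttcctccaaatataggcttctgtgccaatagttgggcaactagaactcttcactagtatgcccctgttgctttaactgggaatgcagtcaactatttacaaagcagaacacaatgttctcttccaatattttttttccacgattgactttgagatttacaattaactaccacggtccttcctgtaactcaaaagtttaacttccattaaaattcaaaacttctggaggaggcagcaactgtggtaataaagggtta
Hao2: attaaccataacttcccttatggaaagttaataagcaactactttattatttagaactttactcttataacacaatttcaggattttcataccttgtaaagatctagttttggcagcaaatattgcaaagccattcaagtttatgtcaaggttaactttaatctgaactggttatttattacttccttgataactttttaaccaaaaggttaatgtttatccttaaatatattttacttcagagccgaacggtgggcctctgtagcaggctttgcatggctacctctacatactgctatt
Cpt1a: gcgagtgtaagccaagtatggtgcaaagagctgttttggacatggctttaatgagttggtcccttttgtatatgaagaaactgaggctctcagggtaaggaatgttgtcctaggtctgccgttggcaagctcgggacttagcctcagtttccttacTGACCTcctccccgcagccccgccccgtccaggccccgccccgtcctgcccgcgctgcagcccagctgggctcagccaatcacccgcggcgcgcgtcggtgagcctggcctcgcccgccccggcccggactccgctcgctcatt
Windows were found for 35 of the 40 members, and on either strand the hexamer AGGTCA occurred in 9 of them (25.7%), against 18.1% of all genes with a window. The 9 were Cpt1a, Acadvl, Acadm, Acot3, Acot4, Acot12, Fabp1, Cd36 and Plin2, and none of the 5 genes with an unadjusted p-value under 0.05 was among them. The full repeat AGGTCANAGGTCA was in 0 of the 35 and in 0.0481% of all genes. The E-box CACGTG, which clock factors bind, was in 3 (Acot4, Fgf21 and Plin2; 8.57%, against 8.09% of all genes), and the D-box TTATGTAA in 0 (1.11% of all genes). These are letter matches in a short window and say nothing of binding.

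Among the peroxisomal genes, both hydroxyacid oxidases lay lower in every heat stress liver, and none of the β-oxidation enzymes did. Hao1, which oxidises glycolate to glyoxylate, measured 286, 375 and 397 CPM in control and 253, 233 and 262 CPM after heat stress. All 3 heat stress livers lay below the lowest control, with a log2 fold change of -0.50 (SE 0.19, unadjusted p = 0.0270, adjusted p = 0.800). Hao2, which oxidises long-chain 2-hydroxy acids, is expressed at a low level, with 59, 60 and 17 counts in control and 9, 15 and 14 counts after heat stress. In CPM these were 3.81, 4.89 and 1.58 against 0.670, 1.05 and 1.10, and the lowest control lay close to the highest heat stress liver. The log2 fold change of -1.87 (SE 0.45, unadjusted p = 0.00193, adjusted p = 0.424) was the largest decrease among the 40 in the fit of all 6 liver libraries.

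Eci2, an enoyl-CoA isomerase of peroxisomes and mitochondria, measured 189, 214 and 170 CPM in control and 216, 224 and 350 CPM after heat stress. The groups almost touched, and heat stress replicate 3 alone lay far above (log2 fold change 0.46, SE 0.23, adjusted p = 0.888, and 0.19 on the log2 scale without that library). The bifunctional enzyme Ehhadh, the thiolases Acaa1a and Acaa1b and the reductase Decr2 had log2 fold changes between 0.15 and 0.24 with overlapping groups, and Crot, the peroxisomal carnitine octanoyltransferase, had -0.31 (adjusted p = 0.939). With edgeR the value of Crot was -0.09 without control replicate 2 and -0.48 without control replicate 1 (unadjusted p = 0.0385, adjusted p = 0.362). Acaa1a and Acaa1b share 21.6% and 22.6% of their 100-base windows, so their split between loci is uncertain.

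The carnitine shuttle is the entry gate of mitochondrial oxidation, and Cpt1a, which commits acyl groups to it, lay higher in every heat stress liver. It measured 194, 185 and 205 CPM in control and 228, 276 and 249 CPM after heat stress, a log2 fold change of 0.36 (SE 0.17, unadjusted p = 0.0639, adjusted p = 0.877). Its partners did not share this, with Slc25a20, the carnitine-acylcarnitine translocase, at 0.14 and Cpt2 at -0.16 on the log2 scale and overlapping groups. The regulators were measured with overlap as well. Ppara itself was at 186, 124 and 166 CPM in control and 183, 227 and 213 CPM after heat stress (log2 fold change 0.39, SE 0.20, adjusted p = 0.901), and Ppargc1a had a log2 fold change of 0.05. The value of Ppara was 0.24 without control replicate 2. It passed an unadjusted p-value of 0.05 with edgeR without control replicate 1 (0.51, unadjusted p = 0.0272), without both libraries with muscle transcripts (0.43, unadjusted p = 0.0462) and with the column suffix as a term (0.52, unadjusted p = 0.0150), at adjusted p-values from 0.336 to 0.489.

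The 8 enzymes of mitochondrial β-oxidation, namely the acyl-CoA dehydrogenases Acadvl, Acadl and Acadm, the trifunctional protein subunits Hadha and Hadhb, the thiolase Acaa2, the isomerase Eci1 and the reductase Decr1, had log2 fold changes from -0.0033 to 0.22. None had an unadjusted p-value under 0.05, and in all 8 the groups overlapped. Hadha showed the pattern of the group most clearly, with 294, 138 and 136 CPM in control and 162, 246 and 251 CPM after heat stress. Control replicate 1 lay above all heat stress livers and heat stress replicate 1 was near the lower controls. Control replicate 1 was the highest control in 5 of the 8 enzymes and heat stress replicate 1 the lowest heat stress library in 7 of the 8. Acaa2 likewise had control replicate 1 highest and heat stress replicate 1 below the other heat stress livers, with 1204, 839 and 747 CPM against 832, 1118 and 1115 CPM. Control replicate 1 is the library with 409 CPM of muscle markers, while heat stress replicate 1 had 3.65 CPM. Without both muscle libraries Hadha had a log2 fold change of 0.58 (unadjusted p = 0.0124, adjusted p = 0.300 with edgeR), and without control replicate 1 alone 0.67 (unadjusted p = 0.00886, adjusted p = 0.248), against 0.22 with all libraries. In both of these fits the unadjusted p-values of the other 7 enzymes stayed above 0.05. The electron transfer genes Etfa, Etfb and Etfdh had log2 fold changes between -0.10 and 0.06.

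Of the acyl-CoA thioesterases, which release free fatty acid and CoA, Acot4 was lower in every heat stress liver but by little, at 22.7, 22.9 and 21.0 CPM against 20.5, 19.7 and 19.2 CPM (log2 fold change -0.16, SE 0.16, adjusted p = 0.947). Acot3 had the highest fitted value of the 40, a log2 fold change of 0.63 (SE 0.34, adjusted p = 0.912), with 7.62, 6.52 and 6.34 CPM in control and 5.58, 10.0 and 16.1 CPM after heat stress. Its heat stress libraries spread from below all controls to far above them, and the value was 0.18 without heat stress replicate 3 and 0.91 without heat stress replicate 1 (unadjusted p = 0.00677, adjusted p = 0.737 with edgeR). Acot1, Acot2, Acot8 and Acot12 had log2 fold changes of -0.13, 0.33, -0.08 and 0.33 with overlapping groups. Acot1 and Acot2 share 16.5% and 17.1% of their 100-base windows, which leaves their split uncertain.

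Of the other genes that PPARα drives or that take up and store fatty acids, Pdk4, the kinase that shuts off pyruvate oxidation, was lower in 2 of the 3 heat stress livers. It measured 9.88, 15.2 and 18.4 CPM in control and 4.24, 12.8 and 3.55 CPM after heat stress, a log2 fold change of -1.06 (SE 0.45, unadjusted p = 0.0389, adjusted p = 0.846). The groups overlapped through heat stress replicate 2 and control replicate 1, the libraries with muscle transcripts. Without both, the log2 fold change was -2.12 with an adjusted p-value of 0.000137 from edgeR, and without heat stress replicate 2 alone it was -1.89 (adjusted p = 0.224). Skeletal muscle is known to make Pdk4, and its part in these 2 libraries was not tested. Angptl4, an inhibitor of lipoprotein lipase, had 45.4, 56.7 and 44.1 CPM in control and 48.9, 62.7 and 98.9 CPM after heat stress, which overlapped (log2 fold change 0.53, SE 0.26, adjusted p = 0.882). Without heat stress replicate 3 its value was 0.18, and without heat stress replicate 1 it was 0.71 (unadjusted p = 0.0161, adjusted p = 0.769 with edgeR). Fgf21 rested on 5 to 14 counts per library and overlapped. The log2 fold changes of Vnn1, Fabp1, Cd36 and the lipid droplet protein gene Plin2 lay between -0.28 and -0.11, all with overlapping groups.

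**Figure D3:**
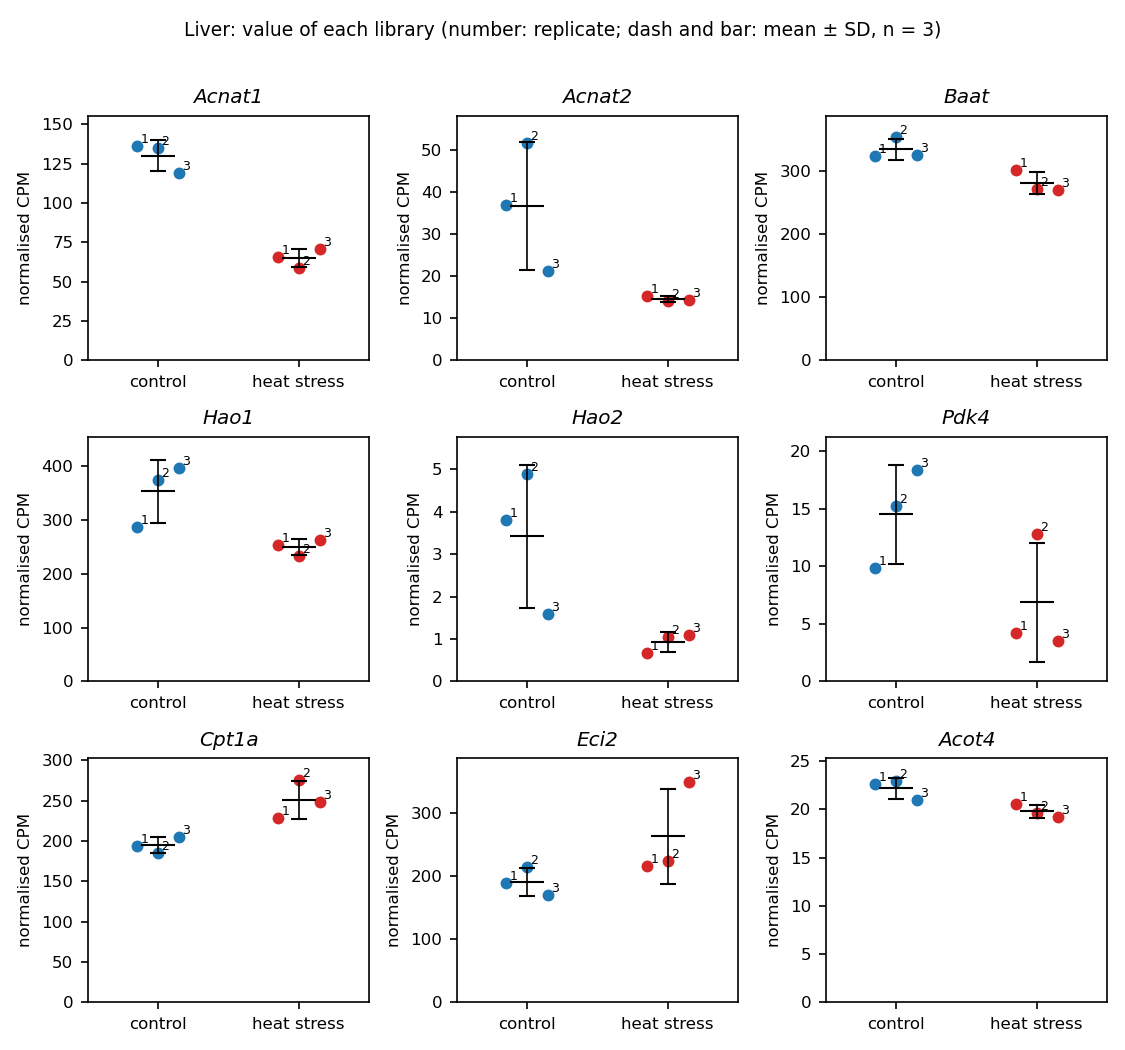
Normalised CPM of each liver library for the 9 genes with an unadjusted p-value under 0.05 or groups that did not overlap; points are single libraries numbered by replicate, and the dash and bar are the mean and SD of 3. The heat stress points of Acnat1 lie between 58.8 and 70.6 CPM, all below the control points, which lie between 119 and 136 CPM.

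The values were also set out by the column suffix. Within the columns that carry the suffix, Acnat1 was at 135 CPM in the control and at 66.0 and 70.6 CPM in the heat stress libraries, and within those without it at 136 and 119 CPM against 58.8 CPM. Acnat2 was at 51.8 CPM against 15.4 and 14.3 CPM with the suffix and at 37.0 and 21.3 CPM against 14.1 CPM without it. Hao2 was at 4.89 CPM against 0.670 and 1.10 CPM with it and at 3.81 and 1.58 CPM against 1.05 CPM without it. With the suffix as a term in edgeR the log2 fold changes were -1.05 for Acnat1 (adjusted p = 0.113), -1.44 for Acnat2 (adjusted p = 0.208) and -1.97 for Hao2 (adjusted p = 0.311). Without both muscle libraries the log2 fold change was -1.31 for Acnat2 (adjusted p = 0.273 with edgeR), -1.88 for Hao2 (adjusted p = 0.140) and -0.60 for Hao1 (adjusted p = 0.249).

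Other transcripts moved with the liver groups. The 10 evening clock genes of a list summed to 357 to 521 CPM in control and to 640 to 779 CPM after heat stress, with 7 of 10 higher at an unadjusted p-value under 0.05 (2.97% of all liver genes), among them Bhlhe41 (log2 fold change 2.07, adjusted p = 0.0678) and Dbp (1.05, adjusted p = 0.465). Of the morning list, Arntl (-1.38) and Clock (-0.71) were lower at an unadjusted p-value under 0.05, out of 5 tested. T and NK cell markers summed to 1.23 to 3.43 CPM in control and 5.64 to 10.4 CPM after heat stress, with none of the 5 of 6 listed genes found in the count table at 0 in all liver libraries. Of the 4 of these that could be tested, 3 were higher at an unadjusted p-value under 0.05. Markers of Kupffer cells, the macrophages of the liver, overlapped in their sum, at 101 to 190 CPM against 139 to 271 CPM. All 6 had log2 fold changes above 0, from 0.03 to 1.83. Of them Marco, a scavenger receptor gene, measured 2.13, 7.42 and 7.08 CPM in control and 34.8, 15.0 and 8.36 CPM after heat stress, without overlap (log2 fold change 1.83, unadjusted p = 0.0156, adjusted p = 0.743 with edgeR). Hepatocyte markers overlapped in their sum, at 77448 to 120353 CPM against 93933 to 125101 CPM. Of the 10, 8 had log2 fold changes above 0 and 2 below. Apoa1 lay higher without overlap (log2 fold change 0.49, unadjusted p = 0.0560, adjusted p = 0.863 with edgeR). Many genes of fatty acid oxidation are known to follow the clock, and the part of time of day or of immune cells in the values of the 40 genes was not tested.

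**Figure D4:**
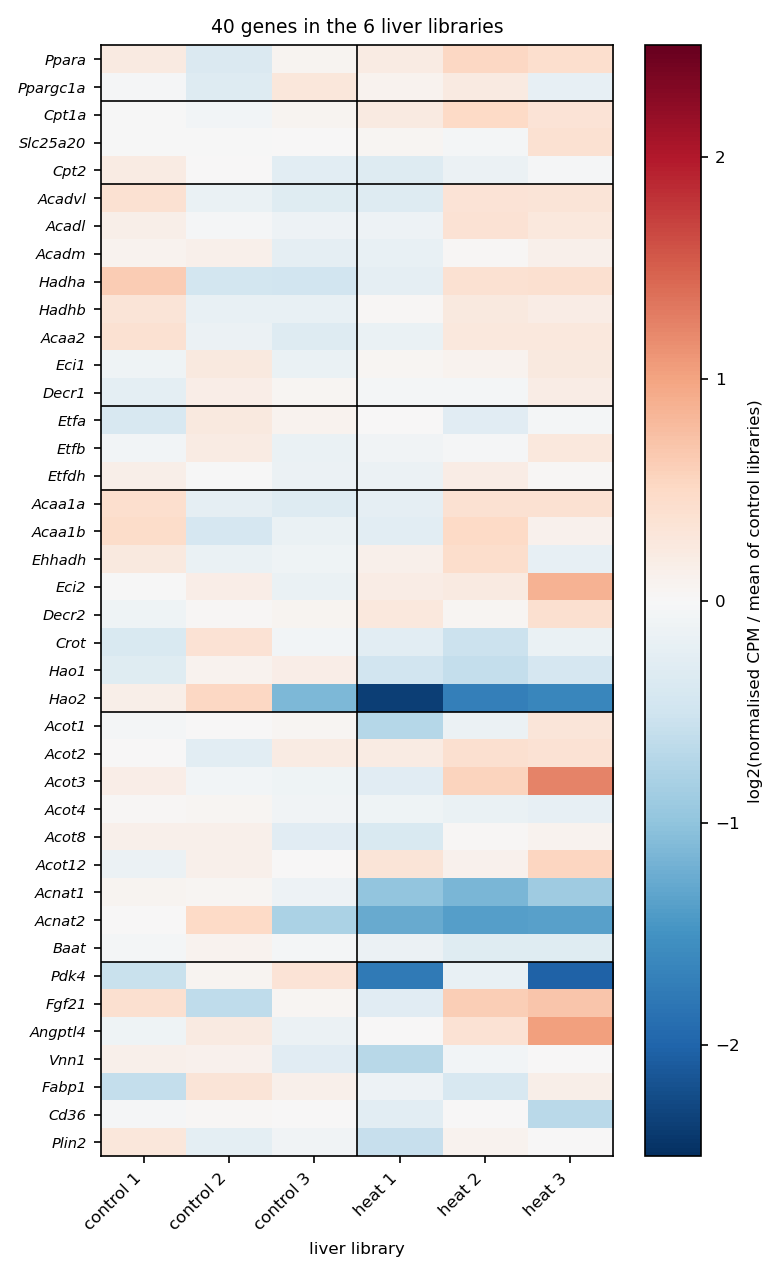
Each of the 40 genes in each of the 6 liver libraries, coloured by the log2 ratio of its normalised CPM to the mean of the 3 control libraries, with lines between the roles. Acnat1, Acnat2 and Hao2 are blue in all 3 heat stress columns, and some mitochondrial genes, Hadha and Acaa2 among them, are red in control 1, heat 2 and heat 3.

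In brain, 30 of the 40 genes could be tested and none was called, as was no gene of the 14806 tested (0%). At an unadjusted p-value under 0.05, Decr1 was higher and Cpt1a and Hadha were lower, that is 1 and 2 of 30, where 10% of all genes passed upward and 10% downward. Cpt1a measured 39.5, 32.9 and 34.1 CPM in control and 25.0, 30.1 and 23.8 CPM after heat stress, every heat stress brain below every control (log2 fold change -0.43, SE 0.13, unadjusted p = 0.00946, adjusted p = 0.171). Hadha had 72.5, 74.4 and 65.2 CPM against 55.7, 54.1 and 54.3 CPM, with a tight heat stress group (log2 fold change -0.37, SE 0.10, adjusted p = 0.170). Decr1 had 23.2, 31.3 and 28.8 CPM against 33.9, 44.0 and 32.6 CPM (log2 fold change 0.41, SE 0.16, adjusted p = 0.210). By lack of overlap, 3 members lay higher in heat stress brain (Decr1, Acot3 and Angptl4; 12.9% of all genes) and 3 lower (Cpt1a, Acadvl and Hadha; 12% of all genes). All of these shares lay near or below those of all genes. Acadvl measured 55.8, 57.4 and 61.7 CPM in control and 50.4, 54.1 and 50.3 CPM after heat stress (log2 fold change -0.18, SE 0.10, adjusted p = 0.355). Acot3 was low in both groups, at 2.95, 2.79 and 1.94 CPM against 3.23, 3.49 and 3.49 CPM (log2 fold change 0.41, SE 0.26, adjusted p = 0.3896). Angptl4 had 1.99, 2.18 and 1.78 CPM against 2.77, 2.87 and 2.36 CPM (log2 fold change 0.43, SE 0.26, adjusted p = 0.371). Clock genes and markers of other cells also differed between these brains. The 10 evening clock genes summed to 920 to 1027 CPM in control and 1050 to 1222 CPM after heat stress, with 4 of 10 higher at an unadjusted p-value under 0.05 (10% of all brain genes), among them Dbp (log2 fold change 0.56, unadjusted p = 0.000339, adjusted p = 0.170 with edgeR). Of the morning list, Arntl (-0.51, unadjusted p = 0.00469, adjusted p = 0.170 with edgeR) and Nfil3 (-0.45) were lower and Cry1 (0.28) higher at an unadjusted p-value under 0.05. The endothelial gene Pecam1 lay between 13.4 and 29.2 CPM in control and between 8.31 and 11.5 CPM after heat stress (log2 fold change -1.04, unadjusted p = 0.00468, adjusted p = 0.170 with edgeR), while the sum of the 6 listed endothelial and stellate markers overlapped at 75.0 to 126 CPM against 62.3 to 121 CPM, and Ttr was lower as given above. The part of time of day or of these cells in the values of Cpt1a, Hadha and the other members was not tested.

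Whether the heat effect differed between the tissues was tested by an interaction term over all 12 libraries and 15824 genes, treating libraries as independent although brain and liver libraries may share a mouse. None of the 40 was called, where 0% of all genes were called higher in liver than in brain and 0.00632% lower. With the unadjusted p-value under 0.05 as the rule, 1 member had a more positive effect in liver (3.73% of all genes) and 3 a more negative one (5.91% of all genes). The former was Cpt1a, with all heat stress livers above and all heat stress brains below their controls, a difference of 0.79 on the log2 scale (SE 0.23, unadjusted p = 0.00412, adjusted p = 0.516 with edgeR and 0.0107 with DESeq2). The latter were Acot4 (-0.77, SE 0.34), Pdk4 (-1.18, SE 0.54) and Fabp1. Fabp1 was in this fit through its liver counts, with 0 to 12 counts in a brain library, so its difference cannot be read. Acot4 had 13, 14 and 8 counts in control brain and 10, 18 and 17 counts in heat stress brain. Its log2 fold change was 0.59 in brain (SE 0.39) and -0.16 in liver (SE 0.16), so its difference rests in part on low counts. With single libraries left out the difference ran from -0.95 to -0.53 for Acot4. For Pdk4 it ran from -2.03 (without liver heat stress replicate 2) to -0.86 (without liver heat stress replicate 3). Acnat1, Acnat2, Hao1 and Hao2 likewise have too few brain counts for the difference to be read.

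Of 75 other genes of the pathway, listed by function, 68 were tested in liver. Of these, 5 were higher and 1 was lower by the unadjusted p-value, where 2.97% of all liver genes were higher and 2.87% lower. Cyp4a12b, a fatty acid ω-hydroxylase, measured 23.5, 11.9 and 15.7 CPM in control and 45.9, 39.4 and 45.1 CPM after heat stress, without overlap (log2 fold change 1.35, SE 0.24, adjusted p = 0.156 with edgeR), and its relative Cyp4a32 had a log2 fold change of 0.70 with overlap. The other listed Cyp4a genes overlapped, with log2 fold changes of -0.33 for Cyp4a12a, -0.37 for Cyp4a14, 0.15 for Cyp4a10 and 0.20 for Cyp4a31. Cyp4a12a measured 322, 116 and 152 CPM in control and 164, 147 and 160 CPM after heat stress. These genes belong to a family of near copies, so their counts are uncertain. Ppargc1b, a coactivator (0.64), Ucp2, a mitochondrial carrier (0.68), and Pnpla2, the adipose triglyceride lipase (0.92), were the other higher genes, with adjusted p-values from 0.622 to 0.820. Pnpla2 overlapped between the groups, at 46.9, 21.8 and 19.1 CPM in control and 33.7, 73.7 and 59.3 CPM after heat stress. Its highest value in each group was in a library with muscle transcripts, whose part was not tested. Ppargc1b and Ucp2 lay higher without overlap. Hacl1, which cleaves 2-hydroxyacyl-CoA in peroxisomes, was lower in every heat stress liver, at 273, 325 and 254 CPM against 203, 203 and 210 CPM (log2 fold change -0.47, SE 0.18, adjusted p = 0.799). The median log2 fold change of the 68 was 0.06. In brain, of 56 tested, 3 were higher (Scp2, Hsd17b10 and Acot13) and 4 lower (Slc27a4, Acot11, Ppard and Pnpla2) by the unadjusted p-value, shares below the 10% of all brain genes in each direction. By lack of overlap 5 of the 56 lay higher in heat stress brain, where 12.9% of all genes did, and 14 lay lower, where 12% did. In liver 6 of the 68 lay higher and 2 lower without overlap, against 5.38% and 5.73% of all genes.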

How the data were processed

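Messenger RNA of brain and liver was measured in 12 libraries, 3 per tissue and treatment. The authors deposited raw read counts per gene symbol. The submitters' processing notes, and likewise a passage of the paper's methods, name FastQC 0.11.9, Trimmomatic 0.39, HISAT2 2.2.1, featureCounts of Subread 2.0.1 and DESeq2 1.22.2 on mm10, whereas a separate passage of those methods names Tophat2 and HTSeq. The annotation release, use of strand and handling of shared reads are not given in the sources used here, so values of paralogs are uncertain. The deposited tables of the authors' own comparisons, which hold log2 fold changes and p-values, were not used. No column of per-library values was left unused.

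Within a tissue, heat stress libraries were set against control libraries in R 4.3.3 with edgeR 4.0.16 (quasi-likelihood test with robust estimates, TMM normalisation, filterByExpr with minimum count 10 and total 15) and Benjamini-Hochberg adjustment over all genes tested. Calls needed an adjusted p-value below 0.05 together with a log2 fold change beyond 1, and a standard error is the size of the log2 fold change divided by the root of the F statistic. DESeq2 1.42.0, other scalings and filters, a single fit of 12 libraries, a replicate block, a term for the column suffix, each library left out in turn and both libraries with muscle transcripts left out were alternatives, and summing Acnat1 and Acnat2 was chosen after seeing the data. Tested on simulated data with 200 genes changed by 4-fold, edgeR recovered 194 with 17 false calls for liver (12153 genes) and 190 with 6 for brain (14660 genes). With 3 libraries against 3, an exact permutation test of a single value cannot go below p = 0.1, so none was used.

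Coordinates and exon lengths are those of GENCODE M21 on GRCm38, and windows at gene starts come from RefSeq on GRCm38.p6. The members and lists were chosen with earlier results of these data known. Values per library are given for members with an unadjusted p-value under 0.05 or groups without overlap and for Acnat1, Acnat2 and Hao2; those of Ppara, Hadha, Acaa2, Acot3 and Angptl4 in liver were added after their values were seen. Values of some genes outside the 40 are not reported here.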

Additional observations from a re-analysis of the deposited data

Results flagged for a closer look

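Cpt1a was the only member with opposite directions in the tissues without overlap in either: the difference of its log2 fold changes, liver minus brain, was 0.79 (SE 0.23, adjusted p = 0.516 with edgeR over all genes tested). All 3 heat stress livers lay above all 3 control livers, and all 3 heat stress brains lay below all 3 control brains.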

How the results depend on the processing

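Over all liver genes the count called higher was 0 with edgeR, and 21 with DESeq2, 3 with no low-count filter, 6 with all 12 libraries in a single fit, 1 with the replicate block, 1 with the column suffix as a term and 36 without both libraries that carried muscle transcripts. The count called lower was 20, 5, 7, 0, 5 and 25 in the same order. Leaving out each library in turn gave 0 to 9 higher and 0 to 15 lower, both highest without control replicate 1. Of the 40 members, DESeq2 called 2 lower (Acnat1 and Acnat2) and the fit without both muscle libraries called 1 (Pdk4). Members higher in liver at an unadjusted p-value under 0.05 numbered 1 with DESeq2, 2 with all 12 libraries, 3 without both muscle libraries and 2 with the suffix term, and 0 to 3 as single libraries were left out (3 without heat stress replicate 1), while those lower numbered 3 to 5 with a library left out and 6 both without the muscle libraries and with the suffix term. In brain DESeq2 called 6 genes higher and 4 lower. Brain members higher at an unadjusted p-value under 0.05 numbered 2 with DESeq2, with no filter and with all 12 libraries, and 0 to 3 with a library left out (3 without control replicate 2), and those lower 1 with all 12 libraries. For the difference between tissues, 2 members were higher with DESeq2 and with no filter and 1 to 6 with a library left out (6 without liver control replicate 1), and 0 to 3 lower (0 without brain control replicate 3). Control liver exceeded control brain in 37 to 38 members as libraries were left out. The cause of these shifts was not tested, except that leaving out libraries tests fewer samples.

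Acnat1 kept a log2 fold change between -1.07 and -0.91, Acnat2 between -1.61 and -1.003 and Hao2 between -2.20 and -1.53 under every alternative run. Direction turned in liver for 14 members with small values. With single libraries left out the log2 fold changes ranged as follows: Ppargc1a -0.086 to 0.21, Slc25a20 -0.014 to 0.22, Acadm -0.11 to 0.064, Acaa2 -0.0013 to 0.35, Decr1 -0.089 to 0.12, Etfa -0.28 to 0.033, Etfb -0.063 to 0.18, Etfdh -0.058 to 0.092, Acaa1b -0.062 to 0.43, Ehhadh -0.025 to 0.28, Acot1 -0.41 to 0.078, Acot8 -0.20 to 0.037, Fabp1 -0.35 to 0.081 and Plin2 -0.25 to 0.034. Without both muscle libraries Ppargc1a was -0.070, Acadm 0.0088 and Decr1 -0.050, and with the suffix term Decr1 was -0.031 and Etfb -0.0041.

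The replicate numbers did not pair heat stress with control: same-numbered liver libraries correlated at -0.642, -0.565 and -0.096 in their deviations from the group means, and brain libraries at -0.306, 0.264 and -0.207. Between brain and liver, same-numbered control libraries correlated at 0.400, 0.411 and 0.135, above every other combination of control numbers, and heat stress libraries at 0.063, -0.259 and 0.017, so a shared mouse was not settled. With the block the difference of Cpt1a between tissues was 0.78 (adjusted p = 0.464). With the replicate block Acnat1 had a log2 fold change of -0.9995 (adjusted p = 0.680).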
